A study of Saccharomyces cerevisiae with 9 samples.

Results

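In this study yeast RNA was sequenced before and after heat, and the counts also cover 697 open reading frames (ORFs) of the nuclear genome whose names follow the systematic scheme but which the R64 reference annotation does not list as protein-coding. They are dubious ORFs, reading frames named when the genome was first annotated and thought not to encode a protein, and a few annotated pseudogenes. The 597 of them with a mean of at least 10 normalized counts over the 9 libraries are described here, out of 6847 features of any kind above that level and 7126 in all. Normalized counts are reads per feature that the authors scaled by library size factors. The other 100 dubious ORFs were below the limit, 13 of them with no read in any library. Just inside it were YER152W-A at 10.1, YDR360W at 10.1 and YMR326C at 10.4 normalized counts, and just outside YNL028W at 9.94, YDR278C at 9.94 and YCL023C at 9.90.

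All libraries came from wild-type BY4742, a haploid laboratory strain of mating type alpha that lacks LEU2, LYS2 and URA3 and carries a his3 allele, grown for 48 h in YPD at 25 °C into stationary phase. The control was taken before heating. For the heat ramp (hereafter the ramp), cells were warmed at 0.5 °C per min to 50 °C, and for the heat shock (the shock) at 50 °C per min to the same temperature, in both cases held there for 30 min and cooled quickly to 25 °C. Each of 3 independent cultures gave 1 library of each kind, so that each of the 3 groups has 3 replicates, and both treatments are set against the same 3 controls.

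A dubious ORF is usually short and most often lies across a verified gene, so reads counted on it can come from several kinds of RNA. Yeast promoters fire in both directions and transcription can run past the end of a gene, so that noncoding and antisense transcripts are made over much of the genome. Many of these transcripts are degraded quickly by the nuclear exosome or by the cytoplasmic exonuclease Xrn1. Where a dubious ORF lies on the same strand as a gene, it can also take up reads of that gene's messenger RNA, and where it lies on the other strand it does so only if the strand of a read is lost or ignored. The library kit marks the strand of the RNA. Whether the counting used it is not given in the sources used here, and without it reads from a gene and from its antisense partner cannot be told apart.

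The reference annotation holds positions for 14 of the 597 members, the pseudogenes. For a further 269, a position was rebuilt on the R64 assembly from the systematic name, which gives the chromosome arm, the order and the strand, and from the frames of at least 100 codons between the annotated neighbours. Members whose name carries a suffix such as -A (214), members with more or fewer frames than names (84) and members with no frame (16) were left without a position. The procedure was also run on 5312 annotated single-exon coding genes of at least 100 codons, hidden one at a time. It placed 4087 and gave the exact coordinates for 97.3% of these, and for 97.0% of the 601 placed genes of at most 600 bases. These genes have a frame of the required length, which is not known for a dubious ORF, so the check can overstate the accuracy for members. Of the 283 members with a position, 192 overlapped a coding gene on the other strand only, 35 overlapped one on the same strand (4 of them another gene on the other strand as well) and 56 overlapped none. The overlap covered a median of 81.3% of a member on the other strand and 26.8% of one on the same strand. The members were short, with median lengths of 381 bases on the other strand, 348 on the same strand and 393 without overlap, against 1211 for the 5912 protein-coding genes tested. Their GC content was close to that of the coding genes, with medians of 39.4%, 37.7% and 40.7% against 39.7%. Every window of 50 bases, the read length, occurred once in the genome for 251 of the 283 members.

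**Figure D1:**
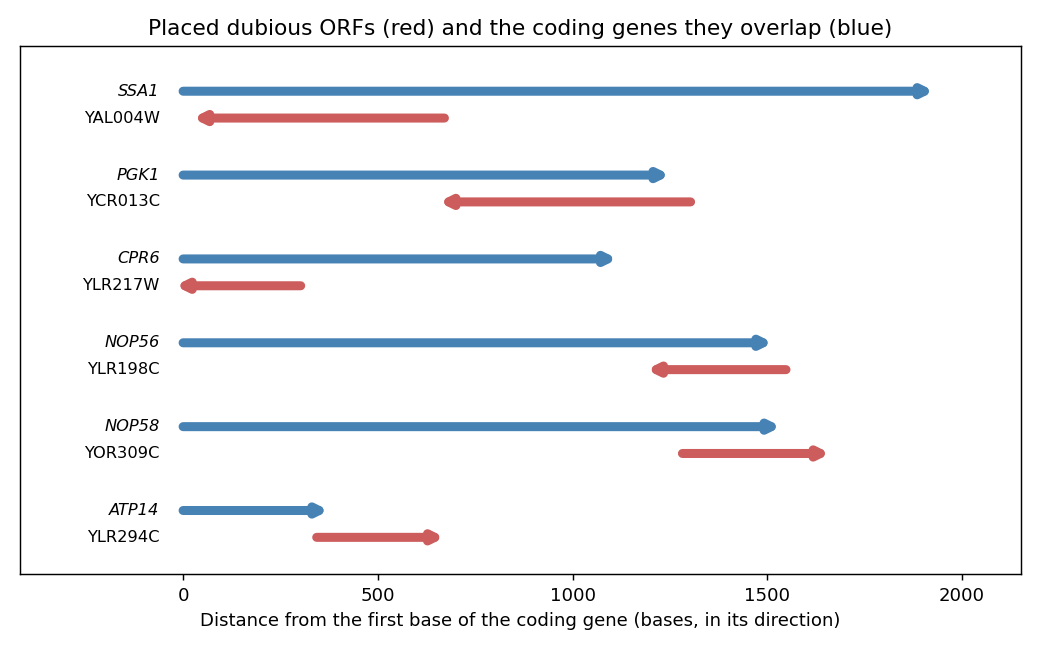
Position of 6 placed dubious ORFs (red arrows) relative to the coding gene each overlaps (blue arrows), in bases from the first base of the coding gene and drawn in its direction. YAL004W, YCR013C, YLR217W and YLR198C run against their gene, while YOR309C and YLR294C run with it and past its end.

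Stretches of 7 members are shown because they carry the arrangements that the values below turn on. The first 4 lie on the other strand of SSA1, PGK1, CPR6 and NOP56, the next 2 on the same strand as NOP58 and ATP14, and the last overlaps no gene. Each is read 5′ to 3′ on the strand of the dubious ORF from the RefSeq sequence of the R64 assembly, with the bases that lie inside the coding gene in capitals. The positions are chrI:140760-140879 (+) for YAL004W, chrIII:138930-139026 (-) for YCR013C, chrXII:573113-573232 (+) for YLR217W, chrXII:547526-547641 (-) for YLR198C, chrXV:896795-896884 (-) for YOR309C, chrXII:721969-722030 (-) for YLR294C and chrXII:757583-757612 (-) for YLR311C.
YAL004W: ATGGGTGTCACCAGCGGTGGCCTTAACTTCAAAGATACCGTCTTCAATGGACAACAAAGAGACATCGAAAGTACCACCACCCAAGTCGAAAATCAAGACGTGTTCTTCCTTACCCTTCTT
YCR013C: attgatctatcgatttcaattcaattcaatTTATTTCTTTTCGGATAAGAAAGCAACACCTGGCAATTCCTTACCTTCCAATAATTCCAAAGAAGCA
YLR217W: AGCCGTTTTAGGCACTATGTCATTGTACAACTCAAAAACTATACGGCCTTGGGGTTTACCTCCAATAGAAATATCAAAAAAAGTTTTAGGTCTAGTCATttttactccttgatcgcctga
YLR198C: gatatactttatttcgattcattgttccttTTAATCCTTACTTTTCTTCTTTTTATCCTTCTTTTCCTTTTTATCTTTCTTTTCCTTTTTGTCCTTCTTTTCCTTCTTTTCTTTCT
YOR309C: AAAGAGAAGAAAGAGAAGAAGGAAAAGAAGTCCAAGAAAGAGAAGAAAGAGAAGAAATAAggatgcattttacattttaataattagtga
YLR294C: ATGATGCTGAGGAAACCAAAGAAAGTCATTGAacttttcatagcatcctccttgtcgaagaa
YLR311C: atgaaattaacaaaagaaaaaaaaaacgac
In YCR013C and YLR198C the capitals begin with TTA, which is the stop codon of PGK1 and NOP56 read on the other strand, and in YLR217W they end with CAT, the start codon of CPR6 read on the other strand. In YOR309C they end with the stop codon TAA of NOP58.

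Between 22579312 and 27233289 reads were counted per library, of which the members held 0.405% to 0.811%. The median member had 35 to 60 reads in a library, so a single member was measured with few reads. Where a member had no read, up to 3 reads per library remain possible (2.05 to 4.92 normalized counts), a limit for counting error only. LEU2, LYS2 and URA3, which the strain lacks, had 0 reads in every library, and of the genes of mating type alpha MFALPHA1 had 3057 to 22755 normalized counts, STE3 2325 to 5909 and MFALPHA2 234 to 1384. The genes of mating type a had reads as well, 29.4 to 408 normalized counts for MFA1, 72.9 to 2072 for MFA2 and 495 to 2428 for STE2, so that the levels of single markers overlapped between the types. In these bulk samples, more cells with a transcript and more transcript per cell cannot be told apart.

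Most members were present at low levels. Their mean normalized counts had a median of 52.1 (quartiles 24.7 and 130), with 417 members between 10 and 100, 160 between 100 and 1000, and 20 at 1000 or more. Per kb of length, the median member on the other strand of a gene had 78.1 ± 8.17 normalized counts in the control (SD, n = 3), 177 ± 36.5 after the ramp and 161 ± 3.55 after the shock. For members on the same strand the same level was 164 ± 5.67, 248 ± 29.7 and 237 ± 42.9, and for members without overlap 106 ± 5.46, 199 ± 28.7 and 145 ± 4.86. The median protein-coding gene had 1108 ± 22.5, 890 ± 40.6 and 988 ± 11.6. With the authors' size factors, all treated libraries lay above all control libraries in each of the 3 classes. For the coding genes they lay below. These levels were not computed with libraries scaled to equal totals of reads. Under that scaling the median log2 fold change of members on the same strand was -0.41 after the ramp.

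The share of reads held by the members was 0.439% ± 0.0483 in the control, 0.642% ± 0.176 after the ramp and 0.759% ± 0.0754 after the shock. The heat shock libraries did not overlap the controls, while the heat ramp libraries did, since heat ramp replicate 2 had 0.448%, below control replicate 2 at 0.494%. A single member weighed heavily on this share. YDR134C (chromosome IV, 721071 to 721481), an annotated pseudogene related to the cell wall mannoprotein gene CCW12, took 37.6% of the members' reads in the control, 18.6% after the ramp and 41.0% after the shock. Without it the members held 0.274% ± 0.0308, 0.526% ± 0.167 and 0.448% ± 0.0446, and neither treatment overlapped the control. Members on the other strand alone held 0.0742% ± 0.0139, 0.240% ± 0.110 and 0.159% ± 0.0227.

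The first comparison asked how these features moved with slow heating. By limma with Benjamini-Hochberg adjustment over all 6847 features and a threshold of 0.05, 404 of the 597 members passed, 374 higher and 30 lower than in the control. Over all features tested, 78.5% passed, 39.0% higher and 39.5% lower, and of the members 67.7%, 62.6% higher and 5.03% lower. Their median log2 fold change was 1.15, against -0.01 over all features. By class, 113 of the 192 members on the other strand were higher and 10 lower (median 1.08), 16 of the 35 on the same strand were higher and 4 lower (0.50), 37 of the 56 without overlap were higher and 2 lower (1.18), and 208 of the 314 without a position were higher and 14 lower (1.32). In every class the median lay above that of all features, and it was lowest for members on the same strand.

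After the shock, 341 members passed, 323 higher and 18 lower, where 57.6% of all features passed, 29.9% higher and 27.7% lower. The median log2 fold change of the members was 0.86, against 0.04 over all features. On the other strand 125 members were higher and 2 lower (median 1.06), on the same strand 12 and 3 (0.29), without overlap 21 and 5 (0.43), and without a position 165 and 8 (0.83). In the direct comparison of the heat ramp with the heat shock, 335 members passed, 219 higher after the ramp and 116 lower, against 72.0% of all features, 35.9% higher and 36.1% lower, with a median of 0.33 for the members and 0.04 for all. Members on the other strand were split there, 50 higher and 51 lower with a median of 0.07.

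**Figure D2:**
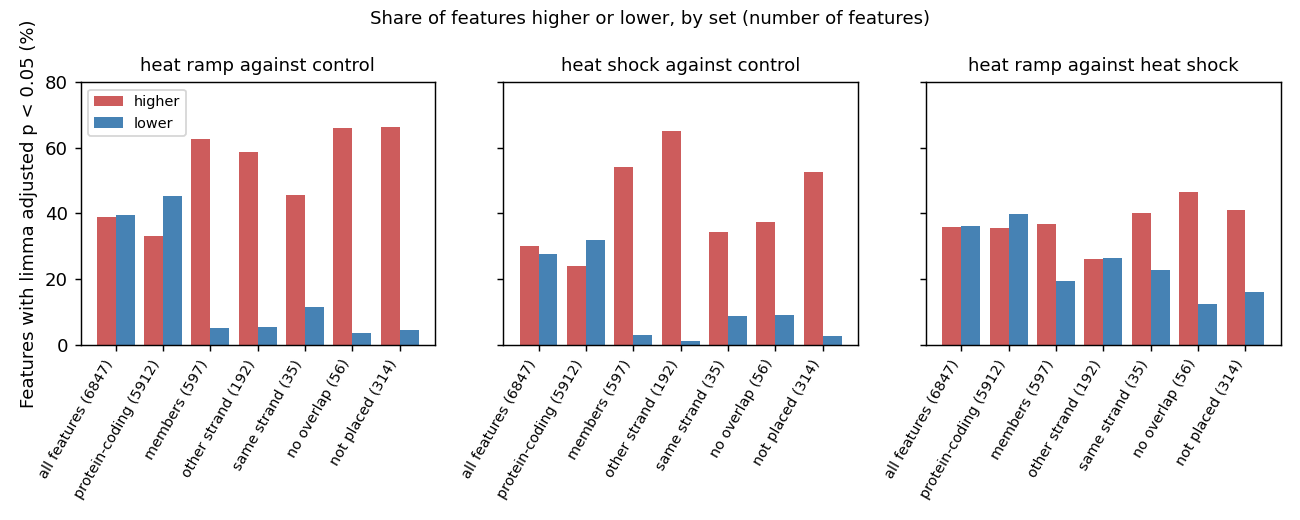
Percent of features higher (red) or lower (blue) by limma at an adjusted p under 0.05 in the 3 comparisons, for all features, protein-coding genes, the 597 members and the members by overlap class, with the number of features in brackets. After the ramp 62.6% of the members were higher and 5.03% lower, while over all features 39.0% were higher and 39.5% lower.

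Most of the weakly counted coding genes rose after the ramp as well. Among features with a mean of 10 to 100 normalized counts, 63.5% of the members and 69.7% of the 304 coding genes were higher after the ramp. After the shock it was 49.2% and 41.4%. A feature under 10 normalized counts in the control passes the limit on the mean only if heated libraries are higher. How much this adds to the shares of features that were higher was not tested. Between 100 and 1000 normalized counts members and coding genes lay apart, with 61.2% of the 160 members and 29.7% of the 1939 coding genes higher after the ramp, and 66.9% and 18.5% after the shock. The split also depended on the scaling. The heat ramp libraries had size factors of 0.61 to 0.71 and the controls 1.40 to 1.46. When libraries were scaled to equal totals instead, the median of all features moved by -0.91 for the ramp, -0.17 for the shock and -0.74 between them. Under that scaling 211 members were higher and 129 lower after the ramp (median 0.27), 281 and 26 after the shock (0.70), and 94 and 233 in the ramp against the shock (-0.39), where the direction of the median turned. By class, it also turned on the same strand after the ramp (9 higher and 14 lower, median -0.41) and, in the ramp against the shock, in all 4 classes, with 19 higher and 92 lower on the other strand (-0.66), 5 and 15 on the same strand (-0.48), 14 and 14 without overlap (-0.12) and 56 and 112 without a position (-0.19).

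Set against the gene they overlap, the members on the other strand lay higher after both treatments. Per kb, a member had a median of 4.67% of the level of its gene in the control (3.93%, 5.59% and 4.50% in the 3 libraries), 14.0% after the ramp (14.2%, 10.9% and 16.9%) and 11.9% after the shock (11.0%, 11.4% and 13.2%). All treated libraries lay above all controls, and the 2 treatments overlapped each other. Members on the same strand had 22% ± 2.66 in the control, 27.1% ± 1.68 after the ramp and 27.2% ± 4.26 after the shock, and heat shock replicates overlapped the controls. Within a culture, the shock value was above the control in all 3, at 23.6% against 19.5%, 26.2% against 24.8% and 31.9% against 21.6%. Only 5 of the 192 members on the other strand and 1 of the 35 on the same strand were above their gene in all 9 libraries. The 5 were YGR182C over TIM13 (a chaperone of the mitochondrial intermembrane space), YLR402W over DUS3 (a dihydrouridine synthase), YPL114W over YPL113C, and both YOR364W and YOR366W over YOR365C, and the other was YPR039W with IRC16.

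**Figure D3:**
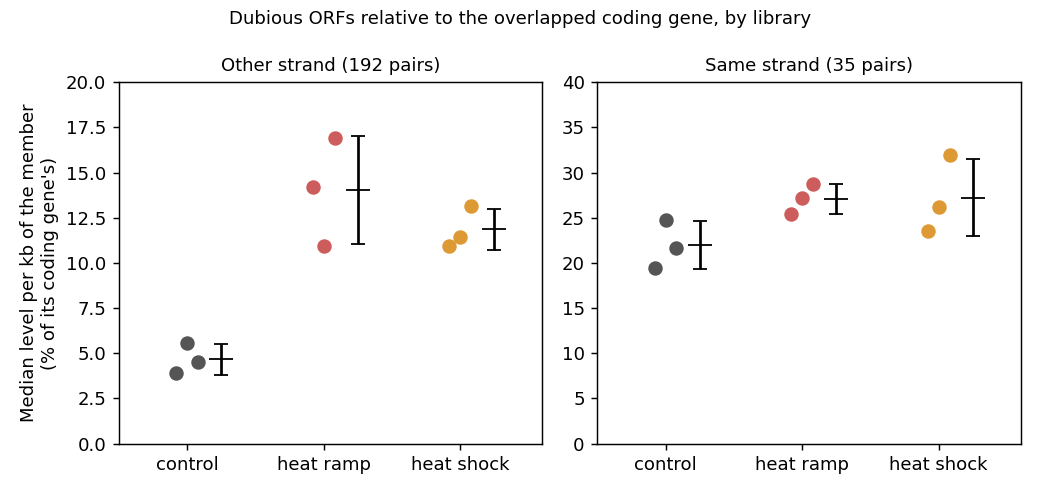
Median level per kb of the dubious ORFs as a percent of the level per kb of the coding gene each overlaps, 1 point per library, with the mean and SD of the 3 replicates beside them, for 192 pairs on opposite strands and 35 on the same strand. The controls lie at 3.93% to 5.59% on the other strand and all treated libraries between 10.9% and 16.9%.

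On the other strand the log2 fold change of a member exceeded that of its gene in 171 of 192 pairs after the ramp, by a median of 1.38, and in 182 of 192 after the shock, by a median of 1.19. Between heat ramp and heat shock the median difference was 0.14. On the same strand the median differences were -0.03, 0.19 and -0.01. The excess was present at both ends of the gene. Members over the 5′ end of the gene (114) went from 3.92% ± 0.684 of its level in the control to 12.1% ± 1.12 after the ramp and 9.49% ± 1.10 after the shock, and members over its 3′ end (74) from 5.73% ± 1.16 to 17.4% ± 5.96 and 16.2% ± 2.59.

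The changes of member and gene were also related. Across the 192 pairs on opposite strands, Pearson's r between the log2 fold change of the member and that of its gene was 0.56 for the ramp, 0.39 for the shock and 0.72 between the treatments, where r with the nearest gene that the member does not overlap was 0.27, 0.15 and 0.31 (191 pairs). In the 65 pairs where at least 90% of the member lay inside the gene, r with the gene was 0.76, 0.57 and 0.84. In the 106 pairs with 33 to 90% inside it was 0.37, 0.31 and 0.62, against 0.31, 0.13 and 0.30 with the neighbour. In the 21 pairs with under 33% inside it was 0.41, 0.29 and 0.55, against 0.40, 0.37 and 0.47. Below 90%, then, r with the gene after the ramp was close to that with the neighbour. In the 35 pairs on the same strand r with the gene was 0.79, 0.23 and 0.80, against 0.40, 0.23 and 0.51. These are descriptions across pairs that share the same libraries and, within a pair, the same stretch of DNA. Of the 113 members that were higher after the ramp, the gene was higher in 45, lower in 38 and not past the threshold in 30. For the 10 members that were lower, the gene was lower in all 10. A lower gene was common, however, as for the 69 members that did not pass it was lower in 47 and higher in 10. How much of these counts came from reads of the gene itself was not tested.

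Of the members with a position, YCR013C had the highest log2 fold change after the ramp. YCR013C (chromosome III, 138402 to 139049, minus strand) has 91.8% of its length over the 3′ end of PGK1, which encodes phosphoglycerate kinase. It had 354, 680.2 and 352 normalized counts in the controls, 33598, 16689.6 and 65453 after the ramp and 688, 1072 and 1168 after the shock. Every heat ramp library was above every control and heat shock library, with replicate 2 the lowest of the 3. The log2 fold change was 6.24 ± 0.386 (SE, limma adjusted p = 4.60e-09) after the ramp and 1.11 ± 0.386 (adjusted p = 0.024) after the shock. The call after the shock did not hold in 4 of the 9 fits with 1 library left out, without control replicate 1 (0.96), control replicate 3 (0.95), heat shock replicate 2 (1.03) or heat shock replicate 3 (0.97), nor with DESeq2 (1.08, adjusted p = 0.0784). PGK1 itself had 19599, 19555 and 19479.6 normalized counts in the controls, 322808, 273179.7 and 458367 after the ramp and 11007, 11175 and 10118 after the shock, so that it rose by 4.13 and fell by 0.86 on the log2 scale. Relative to it, the member went from 4.57% ± 1.86 per kb to 19.8% ± 7.89 and 17.6% ± 5.16.

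YKL153W (chromosome XI, 163600 to 164109, plus strand) covers the 3′ end of GPM1, the gene of phosphoglycerate mutase, in the same way. It had 473, 769.6 and 480.1 normalized counts in the controls, 7846, 4263 and 15682 after the ramp and 544, 964 and 999 after the shock. The ramp libraries lay above all others (log2 fold change 3.85 ± 0.367), whereas the shock libraries overlapped the controls (0.53, adjusted p = 0.233 by limma). GPM1 changed by 2.48 after the ramp and by -1.11 after the shock.

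YAL004W (chromosome I, 140760 to 141407, plus strand) lies wholly inside SSA1, which encodes a cytosolic Hsp70 chaperone, on the other strand. Its normalized counts were 335, 315 and 243 in the controls, 14589.8, 6612 and 19288 after the ramp and 1511, 694 and 1564 after the shock, with replicate 2 lowest in both treatments and no overlap with the controls. The log2 fold changes were 5.38 ± 0.347 and 2.00 ± 0.347 (limma adjusted p = 6.93e-09 and 0.000308). SSA1 changed by 4.41 after the ramp, and by 0.68 after the shock, which did not pass (adjusted p = 0.108). Only 53.9% of the 50-base windows of YAL004W were unique in the genome, and SSA1 has close paralogs, so that its count is uncertain.

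YLR217W (chromosome XII, 572909 to 573232, plus strand) covers the 5′ end of CPR6, a cyclophilin that works with Hsp90. It had 42.4, 36.9 and 39.2 normalized counts in the controls, 883, 624 and 1096 after the ramp and 50.9, 58.4 and 50.3 after the shock, and it was higher after the ramp alone (4.39 ± 0.212, against 0.42 after the shock with adjusted p = 0.105 by limma, and 0.0486 without heat ramp replicate 2). CPR6 changed by 3.84 and -0.43. The third member across from a gene of the heat and trehalose list was YDL228C, over the 3′ end of SSB1, which encodes a ribosome-bound Hsp70. It had 358, 727 and 423 normalized counts in the controls, 286, 175 and 531 after the ramp and 1512, 2555 and 2519 after the shock, which is 2.15 ± 0.346 higher after the shock on the log2 scale with no overlap, and -0.68 after the ramp with overlap. Without control replicate 1 (-0.89) or heat ramp replicate 3 (-1.10) the ramp value passed as lower, and so it did under scaling to equal totals (-1.59, adjusted p = 0.000318 by limma). Of the 50-base windows of YDL228C 79.1% were unique. SSB1 changed by -2.29 after the ramp and 0.25 after the shock. In this pair the member had a mean of 16.1% ± 7.31 and 18.4% ± 4.14 of the gene's level per kb after heat, against 5.18% ± 2.50 in the control. YAL004W had 2.75%, 3.26% and 2.55% of the level of SSA1 in the controls. It had 6.48%, 3.22% and 8.22% after the ramp, with overlap, and 5.23%, 8.40% and 8.02% after the shock, without overlap.

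**Figure D4:**
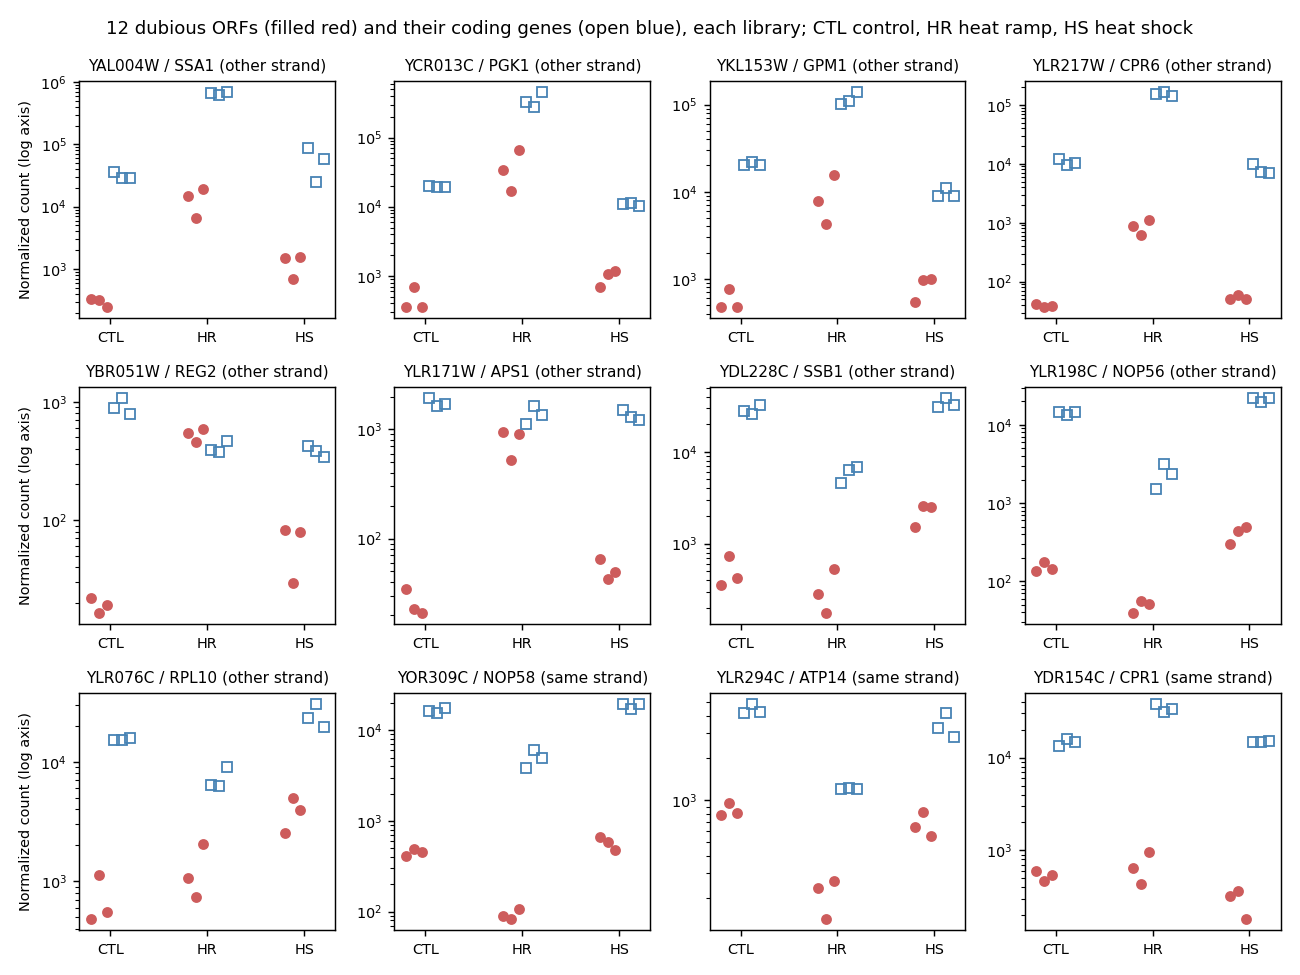
Normalized counts of 12 dubious ORFs (filled red circles) and of the coding genes they overlap (open blue squares) in each of the 9 libraries, on log axes, with the 3 control (CTL), 3 heat ramp (HR) and 3 heat shock (HS) replicates side by side. In the panel of YBR051W and REG2 the dubious ORF rises from 16.4 to 21.9 normalized counts in the controls to 460 to 585 after the ramp, where the gene falls.

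In 38 of the 192 pairs on opposite strands the member and its gene both passed after the ramp in opposite directions. In all 38 the member was higher and the gene lower. Of the 192 members 113 were higher and only 10 lower, so that few pairs could fall the other way. Under scaling to equal totals 59 members were higher and 40 lower (median 0.18), and the pairs were not recounted there. The 5 pairs with the widest gap are given. YBR051W lies over the 5′ end of REG2, a regulatory subunit of protein phosphatase Glc7, and had 21.9, 16.4 and 19.3 normalized counts in the controls, 541, 459.7 and 585 after the ramp and 82.1, 29.2 and 79.9 after the shock. REG2 had 892, 1080.3 and 793, 388, 373 and 469 and 423, 382 and 340.4. Per kb the member went from 6.29% ± 1.57 of its gene to 374% ± 25.6 after the ramp and 48.9% ± 23.8 after the shock, the log2 fold changes being 4.72 and 1.55 for the member and -1.16 and -1.26 for REG2. The other 4 members also cover the 5′ end of their gene, and in each all ramp libraries lay above all controls.

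YLR171W, over APS1, which encodes the small subunit of the clathrin adaptor AP-1, had 34.7, 22.5 and 20.7 normalized counts in the controls, 953, 528 and 916 after the ramp and 64.3, 42.5 and 49.4 after the shock (4.88 and 0.99 on the log2 scale, APS1 -0.37 and -0.40). YMR245W, over COA6, a factor for the assembly of cytochrome c oxidase, had 33.9, 46.4 and 41.4, 471, 353 and 644 and 278, 135 and 297 (3.53 and 2.44, COA6 -1.25 and -0.95). In both, the 3 groups were separate for the member, with the ramp highest. For YMR245W this order rests on the authors' size factors. Its value in the ramp against the shock was 1.08, and under scaling to equal totals 0.34, which did not pass (adjusted p = 0.267 by limma).
YOL079W, over REX4, a putative RNA exonuclease, had 30.4, 39.6 and 48.5, 161, 156 and 241 and 83.9, 79.7 and 112 (2.20 and 1.21, REX4 -2.30 and -0.21). YNL226W, over JJJ1, a J-domain protein of ribosome assembly, had 15.6, 11.6 and 12.8, 73.3, 91.1 and 95.0 and 50.9, 23.0 and 46.7 (2.61 and 1.45, JJJ1 -1.34 and -0.18). YOL079W was at 118% ± 30.4 of REX4 per kb after the ramp, from 5.09% ± 0.823 in the control, and YNL226W at 25.4% ± 8.52 of JJJ1, from 1.53% ± 0.0937.

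After the ramp 10 members on the other strand were lower, of which 4 are described. YLR198C (chromosome XII, 547286 to 547645, minus strand) covers the 3′ end of NOP56, a core protein of the box C/D small nucleolar ribonucleoproteins that guide methylation of ribosomal RNA. It had 135, 178 and 142 normalized counts in the controls, 39.0, 56.1 and 50.8 after the ramp and 298, 434 and 490.5 after the shock. All 3 groups were separate, lower after the ramp (-1.63 ± 0.221, limma adjusted p = 1.13e-05) and higher after the shock (1.40 ± 0.221, adjusted p = 0.000149), and NOP56 moved the same ways, by -2.66 and 0.58. YGR265W, over the gene of methionyl-tRNA synthetase MES1, fell from 28.3, 19.8 and 27.8 normalized counts to 7.80, 4.20 and 1.64 after the ramp and had 32.1, 43.4 and 35.0 after the shock. YDR413C, over RRP17, an exonuclease of ribosomal RNA processing, had 48.8, 59.4 and 64.2, 15.6, 5.61 and 19.7 and 44.6, 92.0 and 64.7, and YPR142C, over RRP15, an assembly factor of the large subunit, 94.8, 83.3 and 84.9, 26.5, 16.8 and 54.1 and 118, 111 and 139. The log2 fold changes after the ramp were -2.39, -2.15 and -1.56, with those of the genes at -1.65, -2.45 and -1.58. None of these 3 passed after the shock in the fit of all libraries. The shock libraries of YPR142C all lay above its controls, and in a fit of only the groups compared it passed (0.47, adjusted p = 0.0286 by limma).

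Members across from ribosomal protein genes, a group chosen after its values were seen, rose after the shock. There are 7 on the other strand, YGL102C (RPL28), YJL188C (RPL39), YLR062C (RPL22A), YLR076C (RPL10), YPL142C (RPL33A), YPL197C (RPL7B) and YPR044C (RPL43A), all over the 3′ end of the gene. After the shock all 7 members and all 7 genes were higher, with median log2 fold changes of 2.09 and 0.62. Over all members on the other strand 65.1% were higher after the shock and 58.9% after the ramp, and over all features 29.9% and 39.0%. After the ramp 2 members were higher and none lower (median 0.40), while 6 genes were lower and none higher (-1.11). YLR076C, the highest of them, had 484, 1136 and 560.00 normalized counts in the controls, 1067, 747 and 2043 after the ramp and 2534, 5016 and 3966 after the shock, with the shock libraries above all others. YPL197C had under 50% unique windows, RPL7B having a near copy, and its count is uncertain.

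On the same strand as a gene, the calls after the ramp mostly went the same way for member and gene. Of the 16 members that were higher after the ramp the gene was higher in 14, and for the 4 that were lower the gene was lower in all 4. For the 15 that did not pass the gene was higher in 3 and lower in 4. After the shock the match was weaker. Of the 12 members that were higher the gene was higher in 7, lower in 1 and not past the threshold in 4. For the 3 members that were lower after the shock the gene did not pass. YOR309C (chromosome XV, 896698 to 897078, minus strand) begins inside the 3′ end of NOP58, a partner of NOP56 in the same particles, and runs past its stop codon. It had 409, 486 and 458 normalized counts in the controls, 90.5, 82.7 and 108 after the ramp and 666, 591 and 478 after the shock, separate and lower after the ramp (-2.26 ± 0.167) and not past the threshold after the shock (0.35, adjusted p = 0.0896 by limma, which passed without heat shock replicate 3 at 0.48). NOP58 changed by -1.75 and 0.19. YLR294C (chromosome XII, 721701 to 722030, minus strand) shares only 32 bases with ATP14, a subunit of the mitochondrial ATP synthase, and otherwise lies downstream of it. With 778, 947 and 806 normalized counts in the controls, 234, 142 and 265 after the ramp and 642, 828 and 555 after the shock, it stayed at 21.6% ± 0.489, 20.1% ± 6.10 and 22.5% ± 0.152 of the level of ATP14 per kb. The log2 fold changes were -2.02 and -0.34 for the member and -1.87 and -0.39 for the gene.

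YDR154C departed from its gene after both treatments. It runs off the 3′ end of CPR1, the gene of cyclophilin A, and had 605, 468 and 543 normalized counts in the controls, 638, 429 and 952 after the ramp and 319, 363 and 181 after the shock. The ramp values overlapped the controls (0.25, adjusted p = 0.412 by limma) and the shock values lay below them (-0.96, adjusted p = 0.00939), a call that was lost without heat shock replicate 3 (-0.65, adjusted p = 0.0548). CPR1 changed by 1.23 and 0.03. Among members on the same strand that rose after the ramp were YLR252W, with 33% of its length in SYM1, at 2.98, and YGR137W, with 70.9% in LSB1, at 2.63, the latter at -0.49 after the shock, which also passed.

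The 56 members that overlap no coding gene include the 14 pseudogenes. YOL153C, which retains similarity to carboxypeptidases, had 1298, 1086 and 1057 normalized counts in the controls, 6974, 5728 and 8659 after the ramp and 1511, 1384 and 1488 after the shock, separate and higher after the ramp (2.62, adjusted p = 2.00e-09 by limma) and not past the threshold after the shock (0.35, adjusted p = 0.0536). YER109C is FLO8, an activator of flocculation and invasive growth genes that carries a stop codon in this strain background. It fell from 1521, 1538 and 1604 normalized counts to 716, 1015 and 879.8 after the ramp and 948, 928 and 854 after the shock, with both treatments below the controls (-0.85 and -0.77) and not apart from each other (-0.08). The last value rests on the authors' size factors. Scaling to equal totals moved the median of all features by -0.74 between the treatments. YOR031W, CRS5, a relative of the metallothioneins, had a mean of 1378 ± 110.3 normalized counts in the control, 2749 ± 477 after the ramp and 851 ± 339 after the shock, with log2 fold changes of 0.98 after the ramp and -0.78 after the shock, both past the threshold. Of the 14 pseudogenes 7 were higher and 2 lower after the ramp, and 4 higher and 4 lower after the shock, which is 50% and 14.3%, and 28.6% and 28.6%, where over all features 39.0% and 39.5%, and 29.9% and 27.7%, were higher and lower.

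The pseudogene of highest level, YDR134C, had 28609, 34343 and 30581 normalized counts in the controls, 59749, 29716 and 35744 after the ramp and 58797, 68073 and 72526 after the shock. The ramp libraries overlapped the controls (0.36, adjusted p = 0.164 by limma), and without heat ramp replicate 2 the value passed (0.57, adjusted p = 0.0406). The shock libraries lay above all controls (1.09, adjusted p = 0.00123). YCL074W, a fragment of a Ty retrotransposon on chromosome III, was at 1.42, 2.05 and 0 in the controls, at or under the limit that a count of 0 allows, and at 14.0, 12.6 and 36.0 after the ramp and 17.9, 15.0 and 18.0 after the shock. For the dubious ORFs without overlap, YLR311C lies 25 bases from ATG39, a receptor of nuclear autophagy, and had 129, 145 and 133 normalized counts in the controls, 197, 175 and 175 after the ramp and 77.7, 92.9 and 53.0 after the shock. It was lower after the shock (-0.89 ± 0.210, adjusted p = 0.00272), while the ramp value of 0.42 did not pass (adjusted p = 0.0787), although the 3 ramp libraries were above the 3 controls. It passed in a fit of only the groups compared (adjusted p = 0.0344 by limma) and without heat shock replicate 3 (0.0372). The ordering of its ramp and control libraries rests on the authors' size factors. Scaling to equal totals moved the median of all features by -0.91 for the ramp. Over the 52 members of this class with a coding gene as neighbour, at a median distance of 358 bases, r with that neighbour's change was 0.57 for the ramp and 0.54 for the shock, again a description over shared libraries.

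Among the 314 members without a position, 214 have a suffixed name, and of those 151 were higher and 5 lower after the ramp and 117 and 4 after the shock. That is 70.6% and 2.34% after the ramp, where all members had 62.6% and 5.03% and all features 39.0% and 39.5%. After the shock it is 54.7% and 1.87%, close to the 54.1% and 3.02% of all members, with 29.9% and 27.7% over all features. For 162 of them a coding gene with the same number exists on the opposite strand by its letter. Of these members, 119 were higher and 2 lower after the ramp, with an r of the log2 fold changes of 0.41. For 46 such a gene exists on the same strand (27 and 3, r 0.35), again a description over shared libraries. A shared number does not show that member and gene overlap, as these members have no position. YER067C-A, which shares its number with RGI1, a gene of respiratory growth, had 15.6, 15.0 and 14.3 normalized counts in the controls, 1496, 819.8 and 2005 after the ramp and 36.6, 35.4 and 28.7 after the shock. The ramp libraries were above all others and the shock libraries above the controls (6.41 ± 0.278 and 1.11 ± 0.278), while RGI1 changed by 6.01 and -0.36, the latter not past the threshold. YOL013W-A (number of HRD1, a ubiquitin ligase of the endoplasmic reticulum) had 5.66, 2.05 and 2.85 normalized counts in the controls, 136, 86.9 and 128 after the ramp and 69.6, 47.8 and 44.0 after the shock. YPR108W-A (number of RPN7, a subunit of the proteasome lid) had 2.83, 2.05 and 2.14, 54.6, 29.4 and 67.2 and 42.8, 36.3 and 42.2, with 3 or 4 reads in each control. For both, the treated libraries did not overlap the controls, with 4.76 and 3.65 for the former and 3.87 and 3.64 for the latter, where HRD1 changed by 0.49 and 0.33 and RPN7 by -0.31 and -0.30.

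YIR020W-A, at 0.71, 0.68 and 0 in the controls, had 49.9, 25.2 and 41.0 normalized counts after the ramp and 17.9, 3.54 and 13.5 after the shock, and YOR314W-A, at 0, 2.05 and 0, had 18.7, 23.8 and 19.7 and 9.82, 10.6 and 12.6. No fold is given for these, as all their controls lie at or under that limit. Like YOL013W-A, YPR108W-A and YER006C-A, both pass the mean of 10 normalized counts only through their heated libraries. Their rise is therefore not independent of the selection. YER006C-A (number of NUG1, a GTPase of ribosome export) rose from 5.66, 4.10 and 4.28 to 40.6, 33.6 and 26.2 after the ramp and 46.4, 20.4 and 44.0 after the shock, while NUG1 changed by -1.79 and 0.57. Higher after the shock than after the ramp were YEL034C-A (number of HYP2, the translation factor eIF5A), with 711, 878 and 666 normalized counts in the controls and 3580.03, 4524 and 6166 after the shock, and YLR286W-A (number of CTS1, an endochitinase), with 84.2, 51.9 and 64.2 and 399, 422 and 824. Their log2 fold changes were 2.63 and 2.96 after the shock and 1.17 and 0.73 after the ramp, of which the last did not pass (adjusted p = 0.0909 by limma, 0.0349 with the replicate number as a block, and 0.00235 without heat ramp replicate 2 at 1.23). Under scaling to equal totals the ramp value of YEL034C-A was 0.26 and did not pass (adjusted p = 0.393). HYP2 and CTS1 changed by 1.43 and 1.57 after the shock.

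Falls among the suffixed members were few. YBR191W-A (number of RPL21A, a ribosomal protein gene) went from 28.3, 29.4 and 28.5 normalized counts in the controls to 1.56, 0 and 3.28 after the ramp, values under the limit of a count of 0, and was at 15.2, 36.3 and 10.8 after the shock. YLR222C-A (number of UTP13, of the small subunit processome) went from 58.7, 81.9 and 52.8 to 7.80, 5.61 and 16.4 after the ramp (-2.68, as UTP13) and was at 65.2, 98.2 and 87.1 after the shock. After the shock, YMR316C-B (number of DIA1) was the lowest of the suffixed members by fold, with 297, 296 and 289.6 normalized counts in the controls, 443, 404 and 357 after the ramp and 142, 149 and 156 after the shock (-0.98 ± 0.144). It was higher after the ramp (0.44, adjusted p = 0.0122 by limma), a call that was lost without heat ramp replicate 1 (0.37, adjusted p = 0.0603) and turned to -0.47 when libraries were scaled to equal totals. Of the other members lowest after the shock, YML116W-A (number of ATR1) changed by -0.81, YHR218W-A by -0.86, YIL168W by -0.85, YDR220C by -0.90 and YOR379C, over the 3′ end of AMF1, by -1.0. The last passed in 8 of the 9 fits with 1 library left out, not without control replicate 3 (-0.90, adjusted p = 0.0585).

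YAL037C-B, without a position and one of the 5 members with the highest mean, had 1099.8, 1597 and 1142 normalized counts in the controls, 16827, 9097 and 25530.4 after the ramp and 2398, 3005 and 4611 after the shock, all 3 groups separate (3.64 and 1.35). The gene of the same number, YAL037W, changed by -0.13 and -0.26, but whether it overlaps YAL037C-B is not known. Members numbered next to the ribosomal RNA genes of chromosome XII also rose. YLR154W-F had 15.6, 33.5 and 20.0 normalized counts in the controls, 733, 399 and 891 after the ramp and 85.7, 81.4 and 134 after the shock, and YLR154W-A, YLR154W-B, YLR154W-E and YLR154W-F had log2 fold changes of 4.14, 3.56, 3.64 and 4.81 after the ramp and of 2.36, 1.52, 2.22 and 2.11 after the shock. The ribosomal RNA genes lie in many copies, and reads between copies cannot be told apart, so these counts are uncertain.

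Each treatment was set against the same controls. For a few members the calls pointed in opposite directions with the authors' size factors. How many of all features did so was not counted. Scaling to equal totals moved the median of all features by -0.91 for the ramp, and YMR316C-B then changed by -0.47. After the ramp 5 were higher and after the shock lower, namely YFR052C-A, YGR137W, YGR269W, YMR316C-B and YOR031W. YFR052C-A (number of RPN12, of the proteasome lid) had 156, 136 and 112 normalized counts in the controls, 1741, 1216 and 2558 after the ramp and 98.2, 95.6 and 62.9 after the shock (3.71 and -0.66), of which the fall after the shock was lost in 4 of the 9 fits with 1 library left out, without control replicate 1 (-0.55), control replicate 2 (-0.65), heat shock replicate 3 (-0.46) or heat ramp replicate 1 (-0.66). RPN12 changed by -0.30 and -0.16, neither past the threshold, and whether it overlaps YFR052C-A is not known.
Lower after the ramp and higher after the shock were 9, namely YCR087W, YDL050C, YDL151C, YGR160W, YJR071W, YKL156C-A, YLR198C, YNR025C and YPL044C. YJR071W had 14.1, 21.2 and 24.3 normalized counts in the controls, 6.24, 7.01 and 9.83 after the ramp and 57.1, 89.4 and 59.3 after the shock, with no overlap between any of the groups (-1.25 and 1.74).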

How the data were processed

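Poly(A)+ RNA of 9 libraries was made with the ScriptSeq kit and sequenced in single-end reads. The authors trimmed reads with Trimmomatic 0.32, aligned them to SacCer3 (R64) with Bowtie2, and divided the reads counted on each feature by a DESeq2 size factor. The tool, annotation and strand setting of the counting are not given in the sources used here. These deposited normalized counts, a signal per feature, are the values used. In each library 100% of them were whole multiples of 1 read (tolerance 1e-06), so that reads were recovered for the count tests. The authors' own fold changes and p-values, which further deposited tables hold, were not used.

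Members were found by name in R64, and positions were rebuilt from name and sequence (frames of at least 100 codons). Any shared base counted as overlap. Members, classes and lists were chosen with earlier results of these data known. Named members are, among those past the threshold whose groups did not overlap, the 8 highest and 8 lowest log2 fold changes after each treatment and the 5 highest and 5 lowest between the treatments, then the 5 of highest mean, those over a gene of a list of 51 heat and trehalose genes, and the 5 other-strand members that most exceeded their gene after the heat ramp where both passed in opposite directions. Other named members were chosen after their values were seen.

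log2(normalized count + 1) of the 6847 features with a mean of at least 10 was fitted with limma 3.58.1 (R 4.3.3, trended prior, group as the only factor, all 9 libraries, two-sided), with Benjamini-Hochberg adjustment and a threshold of 0.05. Fold changes of weakly counted features are understated on this scale. An exact permutation test of 3 against 3 cannot go below p = 0.1. The script was tested on simulated data. Alternatives were pseudocounts of 0.1 and 5, no filter and a minimum mean of 50, TMM and total count scaling, only the groups compared, a replicate block, edgeR 4.0.16 and DESeq2 1.42.0 on the recovered reads, leaving out each library, frames of 80 codons and an overlap of at least 50%. Level bands, overlap bands and genes of the same number were added after seeing the data.

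The replicate number marks a culture, according to the study's supplement. Deviations from the group mean were correlated over features for each culture. Between the control and the ramp library of a culture r was 0.03, -0.20 and -0.01, between its control and shock libraries 0.29, 0.04 and 0.05, and between its ramp and shock libraries -0.05, -0.05 and 0.01.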

Additional observations from a re-analysis of the deposited data

How the results depend on the processing

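Counts of members called stayed within 1.5 times of 404 (heat ramp), 341 (heat shock) and 335 (ramp against shock) under every alternative but a minimum mean of 50 normalized counts, which left 311 members to test and gave 210, 208 and 202. With 1 library left out the counts ranged from 373 to 434, 280 to 372 and 290 to 337. edgeR gave 402, 347 and 334, and DESeq2 399, 347 and 319. With the replicate number as a block 403, 342 and 331 members passed, and among the named members the block changed only the call of YLR286W-A after the ramp. Scaling to equal totals turned the median of the members, and of each of the 4 classes, between ramp and shock. After the ramp it turned the median of the class on the same strand (0.50 to -0.41) and the values of YDR134C (-0.56), YDR154C (-0.66), YDR220C (-0.84) and YMR316C-B (-0.47).

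With frames of at least 80 codons, 146 members were placed on the other strand, 26 on the same strand and 43 without overlap, and 382 had no position. When at least 50% of a member had to be overlapped, the class without overlap grew to 112 members, with 76 called after the ramp, 59 after the shock and 64 between them (39, 26 and 33 with any overlap). The class on the same strand shrank to 12 members, with 7, 2 and 9 called (20, 15 and 22), and its median difference from the gene after the ramp went from -0.03 to -0.30. The counts follow the class sizes, and the cause of the last move was not tested.

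Few reads per member, positions for 283 of 597 members, an unknown counting strand and 3 replicates limit what single members show.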
